A study of Mus musculus with 18 samples.

Results

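The dual-specificity MAP kinase phosphatases were followed as 10 genes, Dusp1, Dusp2, Dusp4, Dusp5, Dusp6, Dusp7, Dusp8, Dusp10, Dusp16 and Dusp14, chosen by name as members of the family, with earlier results of these data known. They are 10 of the 34989 mouse genes to which the estimated counts of the transcripts were summed. RNA from the left ventricle (LV) and right ventricle (RV) of C57B/L6 mouse hearts was sequenced as 18 libraries, with 3 per ventricle at each duration of storage. Explanted hearts of mice labeled 12 weeks old were infused with HTK (histidine-tryptophan-ketoglutarate) preservation solution and kept ice-cold in it for 0, 4 or 8 h. Every heart, those without storage included, was then perfused ex vivo with Krebs buffer for 1 h before both ventricles were collected. The 0 h groups are therefore explanted and perfused hearts and not fresh tissue, and the comparisons measure what the storage time added to explant and perfusion. The labels give no sex, and the study's methods name mice of both sexes and a younger age range than the labels.

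MAP kinases of the ERK, JNK and p38 families are switched on by phosphorylation of a threonine and a tyrosine in their activation loop. Dual-specificity phosphatases remove both phosphates and so end the signal, and several of their genes are themselves switched on by MAP kinase signaling, which closes a negative feedback loop. In the heart, this balance is known for its part in hypertrophy, ischemic injury and inflammation. By location and substrate the family divides into inducible nuclear enzymes (Dusp1, Dusp2, Dusp4 and Dusp5), cytoplasmic enzymes directed at ERK (Dusp6 and Dusp7), enzymes directed at JNK and p38 (Dusp8, Dusp10 and Dusp16), and the small atypical phosphatase Dusp14, which lacks the docking domain of the others.

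Because several members moved together with storage, the 250 bases before the RefSeq start of each gene were read on the gene's own strand from the RefSeq promoter windows of GRCm38.p6. RefSeq's start can differ from the outer end of the gene in the GENCODE annotation, whose coordinates are given with each gene, and the whole windows of Dusp1, Dusp8, Dusp10 and Dusp14 lie inside the GENCODE span. A window was found for 9 of the 10 genes, all but Dusp4. Dusp1 and Dusp8 are shown because they hold the full cAMP response element, TGACGTCA, Dusp5 because it holds a pair of serum response CArG boxes, and Dusp10, which rose at 4 h in both ventricles, as an example that holds neither. The windows of Dusp2, Dusp6, Dusp7, Dusp14 and Dusp16, not shown, also hold neither, and Dusp6 too rose at 4 h in both ventricles. Capitals mark the full cAMP response elements, the CArG boxes and the half-sites TGACG and CGTCA. The Dusp1 window is chr17:26508473-26508722 on the minus strand, that of Dusp8 is chr7:142095285-142095534 on the minus strand, that of Dusp5 is chr19:53528895-53529144 on the plus strand, and that of Dusp10 is chr1:184034131-184034380 on the plus strand.
Dusp1: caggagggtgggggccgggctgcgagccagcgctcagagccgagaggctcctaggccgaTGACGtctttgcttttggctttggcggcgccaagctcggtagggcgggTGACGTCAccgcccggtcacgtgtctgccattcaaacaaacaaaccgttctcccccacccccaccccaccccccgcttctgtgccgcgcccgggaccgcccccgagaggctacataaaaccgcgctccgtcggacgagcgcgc
Dusp8: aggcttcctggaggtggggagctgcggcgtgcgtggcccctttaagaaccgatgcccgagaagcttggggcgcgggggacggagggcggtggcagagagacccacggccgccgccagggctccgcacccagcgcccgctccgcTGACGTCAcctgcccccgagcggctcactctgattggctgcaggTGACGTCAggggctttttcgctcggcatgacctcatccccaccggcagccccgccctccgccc
Dusp5: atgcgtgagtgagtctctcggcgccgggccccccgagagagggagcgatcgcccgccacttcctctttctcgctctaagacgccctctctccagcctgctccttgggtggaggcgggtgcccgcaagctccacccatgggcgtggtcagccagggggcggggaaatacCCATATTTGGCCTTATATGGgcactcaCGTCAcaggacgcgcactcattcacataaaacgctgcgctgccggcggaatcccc
Dusp10: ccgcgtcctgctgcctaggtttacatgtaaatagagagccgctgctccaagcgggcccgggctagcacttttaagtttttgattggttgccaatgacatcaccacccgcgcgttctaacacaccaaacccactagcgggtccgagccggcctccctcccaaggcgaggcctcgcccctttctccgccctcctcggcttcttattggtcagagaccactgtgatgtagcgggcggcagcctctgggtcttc

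The full element lay 143 to 136 bases before the start of Dusp1, and Dusp8 held 2 copies, 107 to 100 and 63 to 56 bases before its start. Of the 32851 RefSeq promoter windows searched on both strands over the same length, 1.546% held it. The CArG boxes of Dusp5 were adjacent, 82 to 73 and 72 to 63 bases before the start, and 1.467% of all windows held at least 1. The half-site alone, which the full element contains, was found in 17.77% of windows, among them those of Dusp1, Dusp5, Dusp8 and Dusp16. The AP-1 letters TGANTCA, present in 6.749% of windows, and the NF-kB motif, present in 3.899%, were in none of the 9. These matches describe letters in a short window, and no binding was measured.

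The libraries held between 22552581 and 46236771 estimated counts, of which 22.6% to 34.3% came from the mitochondrial genome. This share was higher at 8 h than at 0 h without overlap, at 31.9% to 34.3% against 24.0% to 28.2% in LV and at 33.2% to 34.1% against 22.6% to 32.5% in RV. The labeled tissue was reflected in its markers, with summed cardiomyocyte genes between 24750 and 58360 CPM (counts scaled to a fixed TMM-adjusted library size) in every library. This sum was lower after 8 h without overlap, at 35580 to 40050 CPM against 46130 to 57850 CPM at 0 h in LV and at 24750 to 46850 against 48290 to 58360 CPM in RV. Summed fibroblast markers were higher at 8 h without overlap, at 709.1 to 1013 CPM against 618.6 to 679.2 CPM in LV and at 788.1 to 1413 against 757.8 to 778.8 CPM in RV, as were smooth muscle and pericyte markers in LV, at 801.3 to 914.8 against 696 to 785.2 CPM. The part of these shifts in the changes below was not tested. All 10 phosphatase genes passed the filter on low counts in both ventricles. Dusp14 was the least sampled, with 5 to 22 counts per library, and Dusp4 had 46 to 399. Apart from Dusp14, a single protein-coding transcript carried between 91.46% and 100% of the counts of each gene. A gene was called when its Benjamini-Hochberg adjusted p over all genes tested was under 0.1 and its fold change over 1.5. Adjusted p-values are those of edgeR where no other tool is named, and SE is the standard error of a log2 fold change.

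Levels can be compared between genes only per transcript length, for which the length-normalized TPM values of the authors were summed per gene. Dusp1, which dephosphorylates mainly p38 and JNK, had the highest TPM level of the family in all 6 groups without overlap with the next gene, from 94.3 ± 28.2 TPM (SD, n = 3) in RV at 0 h to 190.1 ± 17.3 TPM in LV at 4 h. At 0 h the next levels in LV were those of Dusp8 (18.4 ± 6.6 TPM), Dusp6 (14.0 ± 3.5 TPM), Dusp7 (13.3 ± 2.0 TPM) and Dusp5 (13.1 ± 6.3 TPM), whose libraries overlapped each other in that order. In RV at 0 h the same 4 genes followed Dusp1 with Dusp7 first, at 14.4 ± 0.9 TPM. After 4 h, Dusp5 and Dusp6 ranked next after Dusp1 in both ventricles, at 40.7 ± 15.9 and 36.5 ± 1.6 TPM in LV and at 44.0 ± 9.5 and 28.6 ± 5.7 TPM in RV. The libraries of Dusp5 and Dusp6 overlapped in both. Dusp14 was lowest throughout, between 0.202 and 0.855 TPM.

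Members were called higher after storage in both ventricles, and none was called lower. The comparisons of 4 h and of 8 h share the 0 h libraries of their ventricle. At 4 h against 0 h, edgeR called 2 of the 10 members higher in LV, where 2.4% of the 14564 genes tested were called higher, and 4 in RV, where 6.17% of 14622 were. At 8 h it called 1 member higher in LV, against 5.46% of all genes, and 7 in RV, against 13% of all genes. No member was called lower in these comparisons, where 0.398% and 1.26% of all genes in LV and 3.91% and 5.26% in RV were called lower at 4 h and 8 h, and no member that was lower had an unadjusted p under 0.05. DESeq2 also called no member lower. Same-numbered libraries of RV deviated together at different storage times, and with the replicate number as a block the count in RV was 7 at 4 h (8.45% of all genes higher) and 8 at 8 h (15.5%).

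**Figure D1:**
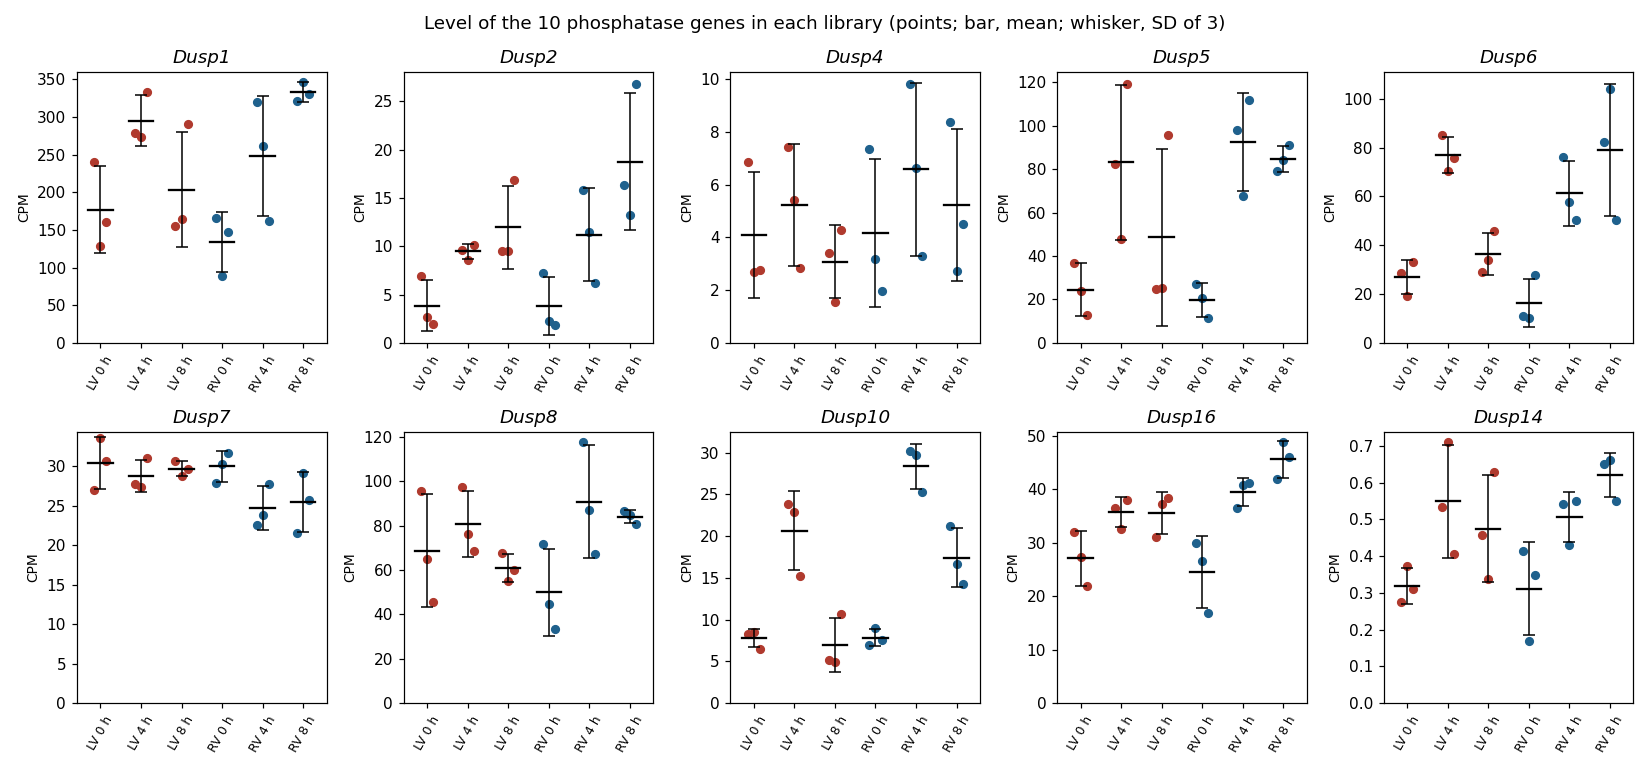
Level of each phosphatase gene in CPM (y axis, linear, from 0) in each library of the 6 groups (x axis); points are libraries, short horizontal bars the mean of 3 and whiskers the SD. Dusp5, Dusp6, Dusp10, Dusp14 and Dusp16 at 4 h lie above every 0 h library of their ventricle, as do Dusp1 and Dusp2 in LV. The share of all genes that do so was not counted. In LV at 8 h Dusp10 lies from 4.92 to 10.7 CPM, on both sides of its 0 h range of 6.51 to 8.51 CPM.

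Among the inducible nuclear phosphatases, Dusp1 (ENSMUSG00000024190.7, chromosome 17, 26505590 to 26562128, GRCm38 as for all genes here) rose in RV. Its levels in RV were 165.6, 89.4 and 146.6 CPM at 0 h, 320.3, 261.4 and 162.4 CPM at 4 h, and 320.7, 347.1 and 330.6 CPM at 8 h. All 3 libraries at 8 h lay above those at 0 h, while at 4 h replicate 3 fell inside the 0 h range. In RV at 8 h, Dusp1 rose by 1.34 on the log2 scale (SE 0.29, adjusted p = 0.0172). At 4 h the change was 0.89 (SE 0.29, adjusted p = 0.103, and 0.0846 with the replicate block), so that edgeR with all RV libraries made the call with the block and not without. Of the 9 edgeR fits that left out 1 library of RV, 2 also made the call, with adjusted p down to 0.0667. In LV the levels were 240.6, 128.9 and 160.7 CPM at 0 h, 278.6, 273.2 and 333.7 CPM at 4 h, and 154.6, 164.3 and 291.3 CPM at 8 h. The 4 h libraries of LV did not overlap with those at 0 h, but the log2 fold change of 0.75 (SE 0.28, adjusted p = 0.243) did not pass, and that at 8 h was 0.22 (SE 0.28).

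Dusp2 (ENSMUSG00000027368.6, chromosome 2, 127336159 to 127338376), best known from activated immune cells and directed at ERK and p38, rose at 8 h in both ventricles. In LV its levels were 6.88, 2.71 and 1.98 CPM at 0 h, 9.63, 8.60 and 10.2 CPM at 4 h, and 9.49, 9.48 and 16.9 CPM at 8 h. In RV they were 7.23, 2.31 and 1.88 CPM at 0 h, 15.9, 11.4 and 6.24 CPM at 4 h, and 16.4, 13.2 and 26.8 CPM at 8 h. Stored libraries lay above all 0 h libraries of their ventricle except RV replicate 3 at 4 h, and in both ventricles replicate 1 was the highest at 0 h. The log2 fold change at 8 h was 1.63 in LV (SE 0.42, adjusted p = 0.069) and 2.34 in RV (SE 0.54, adjusted p = 0.0228). At 4 h it was 1.29 in LV (adjusted p = 0.182, and 0.0255 without LV replicate 1 of 0 h) and 1.56 in RV (adjusted p = 0.122, and 0.0698 with the replicate block). The LV call at 8 h was lost when any one of LV replicates 2 and 3 at 0 h, replicate 1 at 4 h, or replicates 1 and 3 at 8 h was left out, with adjusted p up to 0.26 in edgeR. The RV call at 8 h was lost without RV replicate 2 of 0 h (adjusted p = 0.102).

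The summed CPM of 5 neutrophil markers, like Dusp2, was higher at 8 h than at 0 h without overlap in both ventricles. In LV it was 1.03 to 1.77 at 0 h, 3.45 to 7.07 at 4 h and 9.78 to 18.1 at 8 h. In RV it was 0.983 to 2.45, 4.46 to 9.07 and 11.9 to 16.4. Other members were called higher in RV at 8 h too, so a rise beside these markers is not particular to Dusp2. Csf3r, the receptor for granulocyte colony-stimulating factor, held most of this sum, with means of 1.40 CPM in LV at 0 h and 7.93 CPM at 8 h and of 1.77 and 12.9 CPM in RV. The other 4 markers had means under 1 CPM over all libraries, and the defining marker Ly6g was at 0 in 5 of the 6 groups and reached 0.122 CPM in LV at 8 h. The 7 lymphocyte markers each had a mean under 1 CPM over all libraries, and their sum was higher at 8 h in LV without overlap, at 1.11 to 1.81 CPM against 0.38 to 0.775 CPM at 0 h, while in RV it overlapped at 0.442 to 1.32 against 0.444 to 0.78 CPM. Summed macrophage markers overlapped between 0 h and 8 h in both ventricles, at 84.1 to 128.7 and 85.9 to 154.2 CPM in LV and 111.9 to 166.1 and 102.6 to 224 CPM in RV. Summed erythroid markers went from 4.50 to 6.24 CPM at 0 h to 11.8 to 194.4 CPM at 8 h in LV, and from 2.41 to 6.01 to 3.93 to 50.9 CPM in RV. In bulk tissue, a change in the number of cells of a type and a change in RNA per cell cannot be told apart, and the part of these cells in the level of Dusp2 was not tested.

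Dusp5 (ENSMUSG00000034765.6, chromosome 19, 53529109 to 53542431), a nuclear phosphatase that inactivates and anchors ERK, had the largest fold change of the family at 4 h in both ventricles. Its levels in RV were 26.9, 20.6 and 11.3 CPM at 0 h, 98.0, 67.6 and 112.1 CPM at 4 h, and 79.2, 84.1 and 91.2 CPM at 8 h. All stored libraries of RV lay above all 0 h libraries. Storage changed Dusp5 in RV by 2.26 on the log2 scale at 4 h (SE 0.31, adjusted p = 0.00722) and 2.15 at 8 h (SE 0.31, adjusted p = 0.00375). In LV the levels were 36.9, 23.8 and 12.8 CPM at 0 h, 82.4, 47.9 and 119.3 CPM at 4 h, and 24.7, 25.3 and 95.7 CPM at 8 h. The 4 h libraries of LV were all higher than at 0 h but spread widely, and at 8 h replicates 1 and 2 fell within the 0 h range while replicate 3 did not. Neither LV log2 fold change passed, 1.77 at 4 h (SE 0.60, adjusted p = 0.197) and 1.00 at 8 h (SE 0.59, adjusted p = 0.333). LV replicate 3 of 8 h was the highest 8 h library of LV for every member except Dusp7 and Dusp8. Without this library, Dusp5 passed at 4 h (log2 fold change 1.76, adjusted p = 0.0576), as did Dusp1 (0.0998).

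Dusp4 (ENSMUSG00000031530.6, chromosome 8, 34807297 to 34819894), a nuclear relative of Dusp1, was not called in any comparison with 0 h. It ranged from 1.55 to 9.82 CPM, replicate 1 was the highest library in 5 of the 6 groups, and its log2 fold changes lay between -0.42 in LV at 8 h and 0.67 in RV at 4 h with SEs of 0.49 to 0.56.

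Among the ERK-directed cytoplasmic enzymes, Dusp6 rose and no change of Dusp7 passed the test. Dusp6 (ENSMUSG00000019960.8, chromosome 10, 99263231 to 99267489) is a transcriptional target of ERK whose enzyme inactivates it. Its levels in LV were 28.5, 19.3 and 33.2 CPM at 0 h, 85.1, 70.5 and 75.5 CPM at 4 h, and 29.0, 34.1 and 45.9 CPM at 8 h. In RV they were 11.1, 10.2 and 27.6 CPM at 0 h, 76.0, 57.8 and 50.1 CPM at 4 h, and 82.5, 104.1 and 50.2 CPM at 8 h. The LV libraries at 4 h were above all others of LV, and those at 8 h overlapped with 0 h, whereas in RV every stored library was above every 0 h library. On the log2 scale Dusp6 changed by 1.52 in LV at 4 h (SE 0.22, adjusted p = 0.0262) and 0.44 at 8 h (SE 0.22, adjusted p = 0.263). In RV the change was 1.90 at 4 h (SE 0.41, adjusted p = 0.0307) and 2.28 at 8 h (SE 0.42, adjusted p = 0.00931). The call at 4 h was lost without LV replicate 2 of 0 h (adjusted p = 0.119) and, in RV, without replicate 2 of 0 h (0.134) or replicate 1 of 4 h (0.102).

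Dusp7 (ENSMUSG00000053716.9, chromosome 9, 106368632 to 106375724), the second cytoplasmic ERK phosphatase, stayed between 21.5 and 33.5 CPM in all 18 libraries. Its log2 fold changes with storage lay between -0.27 and -0.02, with SEs of 0.11 to 0.16, and none passed. In RV the 3 libraries at 4 h, at 22.5 to 27.8 CPM, were all below those at 0 h, at 27.9 to 31.7 CPM.

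**Figure D2:**
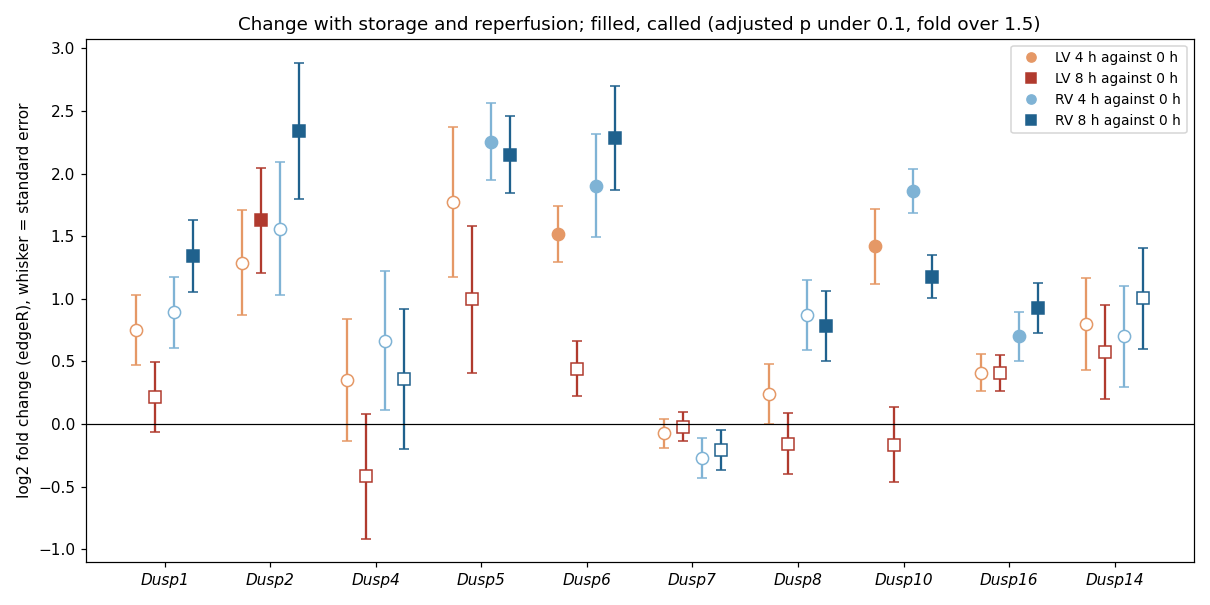
Log2 fold change (y axis, edgeR) of each gene (x axis) at 4 h and 8 h against 0 h in LV and RV; whiskers are the standard error, filled symbols passed the adjusted p and fold change thresholds. Called members lie between 0.70 (Dusp16 in RV at 4 h) and 2.34 (Dusp2 in RV at 8 h), and Dusp7 is below 0 in all 4 comparisons.

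Among the enzymes directed at JNK and p38, Dusp10 (ENSMUSG00000039384.8, chromosome 1, 184013302 to 184075636) rose at 4 h in both ventricles. Its levels in LV were 8.23, 8.51 and 6.51 CPM at 0 h, 23.8, 22.9 and 15.2 CPM at 4 h, and 5.14, 4.92 and 10.7 CPM at 8 h. In RV they were 6.96, 8.95 and 7.60 CPM at 0 h, 30.2, 29.7 and 25.3 CPM at 4 h, and 21.3, 16.7 and 14.3 CPM at 8 h. Thus the LV libraries at 8 h straddled the 0 h range, while those of RV at 8 h lay between the 0 h and 4 h libraries without overlap with either. In RV, Dusp10 rose by 1.86 on the log2 scale at 4 h (SE 0.17, adjusted p = 0.0027) and 1.18 at 8 h (SE 0.17, adjusted p = 0.00408). In LV the change was 1.42 at 4 h (SE 0.30, adjusted p = 0.0641) and -0.17 at 8 h (SE 0.30, adjusted p = 0.764). The LV call at 4 h was lost when LV replicate 2 or 3 of 0 h or any of the 3 replicates of 4 h was left out, with adjusted p from 0.121 to 0.269 in edgeR and log2 fold changes from 1.31 to 1.59.

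Dusp8 (ENSMUSG00000037887.11, chromosome 7, 142079490 to 142095843), a phosphatase abundant in heart and brain, passed the test in RV. Its levels in RV were 71.8, 44.6 and 33.6 CPM at 0 h, 117.9, 87.2 and 67.4 CPM at 4 h, and 86.6, 85.0 and 80.9 CPM at 8 h. The 8 h libraries were all above those at 0 h, and at 4 h replicate 3 was not. The log2 fold change at 8 h was 0.78 (SE 0.28, adjusted p = 0.0946) and at 4 h 0.87 (SE 0.28, adjusted p = 0.103, and 0.0293 with the replicate block). The 8 h call lay close to the threshold and was lost in 6 of the 9 fits that left out 1 library of RV (replicate 2 or 3 of 0 h, replicate 2 of 4 h, and each replicate of 8 h), where the adjusted p reached 0.262. In LV the levels ranged from 45.5 to 97.6 CPM with log2 fold changes of 0.24 at 4 h and -0.16 at 8 h (SE 0.24 each), neither past the test.

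Dusp16 (ENSMUSG00000030203.17, chromosome 6, 134715468 to 134792625), which acts on JNK and p38, rose in RV, and its change at 4 h was the smallest of the called changes. Its levels in RV were 30.0, 26.6 and 16.9 CPM at 0 h, 36.6, 40.9 and 41.2 CPM at 4 h, and 41.9, 48.8 and 46.2 CPM at 8 h, with no overlap between 0 h and either storage time. Dusp16 rose by 0.70 on the log2 scale at 4 h (SE 0.20, adjusted p = 0.0707) and 0.93 at 8 h (SE 0.20, adjusted p = 0.0166). The 4 h call was lost in 5 of 9 fits with 1 library left out (replicate 2 or 3 of 0 h and each replicate of 4 h) and with transcript length offsets (adjusted p = 0.15). In LV the log2 fold change was 0.41 at both 4 h and 8 h (SE 0.15), with an adjusted p of 0.227 and 0.149.

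The atypical Dusp14 (ENSMUSG00000018648.15, chromosome 11, 84048041 to 84069261), known as a negative regulator of T cell signaling, lay between 0.17 and 0.711 CPM. Its 8 h libraries in RV (0.552 to 0.662 CPM) were above those at 0 h (0.17 to 0.415 CPM), and the log2 fold change was 1.00 (SE 0.40, adjusted p = 0.129, and 0.0997 with the replicate block). A few reads decide such a level.

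Between 4 h and 8 h of storage, edgeR called none of the 10 members in either ventricle, where 0% of all genes tested were called in LV and 0% were in RV. Before adjustment, at p under 0.05, 2 members were lower at 8 h in LV and 1 in RV. In either direction, 1180 of the 14564 genes in LV and 961 of the 14622 in RV had such a p. The 2 members in LV were Dusp6, with a log2 fold change of -1.08 (SE 0.22, adjusted p = 0.551), and Dusp10, with -1.58 (SE 0.30, adjusted p = 0.531). Their 8 h libraries and those of Dusp8 all lay below the 4 h libraries. DESeq2 called Dusp6 lower (adjusted p = 0.00508) and gave no adjusted p for Dusp10. With transcript length offsets DESeq2 called both Dusp6 (adjusted p = 0.0359) and Dusp10 (0.000709). Without LV replicate 3 of 8 h, edgeR called Dusp10 lower (-2.02, adjusted p = 0.0616), as it did 8 of 14758 genes. In RV the 1 member was Dusp10 as well, with -0.69 (SE 0.17, adjusted p = 0.599), and DESeq2 called 0 members. Dusp1, Dusp14 and Dusp16 of RV were higher at 8 h than at 4 h in all 3 libraries without passing the test. For Dusp14 the lowest 8 h and the highest 4 h library both lay at 0.552 CPM after rounding. The share of all genes without overlap between 4 h and 8 h was not counted, so these separations do not set the family apart.

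LV and RV were next compared directly at each storage time. Same-numbered libraries of the ventricles deviated together from their group means, with correlations across genes from 0.325 to 0.697 in the 9 pairs, and were taken as a heart in the replicate block. That equal numbers come from 1 heart is not stated in the sources used here. Without the block, edgeR called no member at 0, 4 or 8 h, where 0.159%, 0.0133% and 0.0331% of the 15093 genes were called in either direction. At an unadjusted p under 0.05 there were 0, 0 and 4 members, beside 484, 446 and 1669 of the 15093 genes. DESeq2 called 0, 0 and 2 members, beside 61, 24 and 176 of 24072 genes. Without LV replicate 3 of 8 h, edgeR called Dusp5 (-1.78, adjusted p = 0.0797) and Dusp10 (-1.80, 0.0064) lower in LV at 8 h, and without RV replicate 3 of 8 h it called Dusp10 (-1.49, 0.0887). These fits called 286 of 15339 and 15 of 15274 genes lower in LV.

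With the block, no member was called lower in LV at 0 h (1.01% of all genes) or at 4 h (1.09%), and 6 were at 8 h (6.53%). At p under 0.05 before adjustment, 0 members were lower in LV at 0 h and 1 at 4 h (Dusp10). Those higher in LV were Dusp6 and Dusp8 at 0 h and Dusp7 at 4 h. In either direction, 2161 and 2520 of the 15093 genes had such a p at 0 h and 4 h. Dusp8 had an adjusted p of 0.0134 at 0 h at a log2 difference of 0.45, under the fold change minimum. The 6 at 8 h were Dusp1, Dusp2, Dusp4, Dusp5, Dusp6 and Dusp10. For Dusp10 the log2 level in LV minus that in RV was -2.05, -1.76 and -0.42 in the 3 pairs at 8 h, and 0.24, -0.07 and -0.22 at 0 h. LV was thus lower in all 3 pairs at 8 h and on both sides of RV at 0 h. The fitted difference at 8 h was -1.42 (SE 0.24, adjusted p = 0.00207 with the block, and 0.12 without). For Dusp6 the differences were -1.51, -1.61 and -0.13 at 8 h but 1.36, 0.91 and 0.27 at 0 h, so that LV was higher than RV in every pair without storage and lower in every pair after 8 h. The fitted difference of Dusp6 at 8 h was -1.11 (SE 0.25, adjusted p = 0.0103 with the block, 0.279 without).

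For Dusp5 the pairs at 8 h differed by -1.68, -1.74 and 0.07, with a fitted difference of -1.13 (SE 0.28, adjusted p = 0.0142 with the block). Dusp1 differed by -1.05, -1.08 and -0.18 in the pairs and by -0.79 in the fit (SE 0.22, adjusted p = 0.0249 with the block). Replicate 3 gave the difference of smallest size of the 3 pairs in Dusp1, Dusp4, Dusp5, Dusp6, Dusp10, Dusp14 and Dusp16. Dusp2 (-0.67, adjusted p = 0.0281 with the block) and Dusp4 (-0.79, 0.0197) were lower in LV in all 3 pairs. Dusp8 (-0.49, adjusted p = 0.00144 with the block) and Dusp16 (-0.38, 0.00703) were also lower in LV in all 3 pairs, under the fold change minimum. Dusp7 and Dusp14 did not pass. Without heart 1 of 8 h only 2 members were called, and without heart 2 there were 5.

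**Figure D3:**
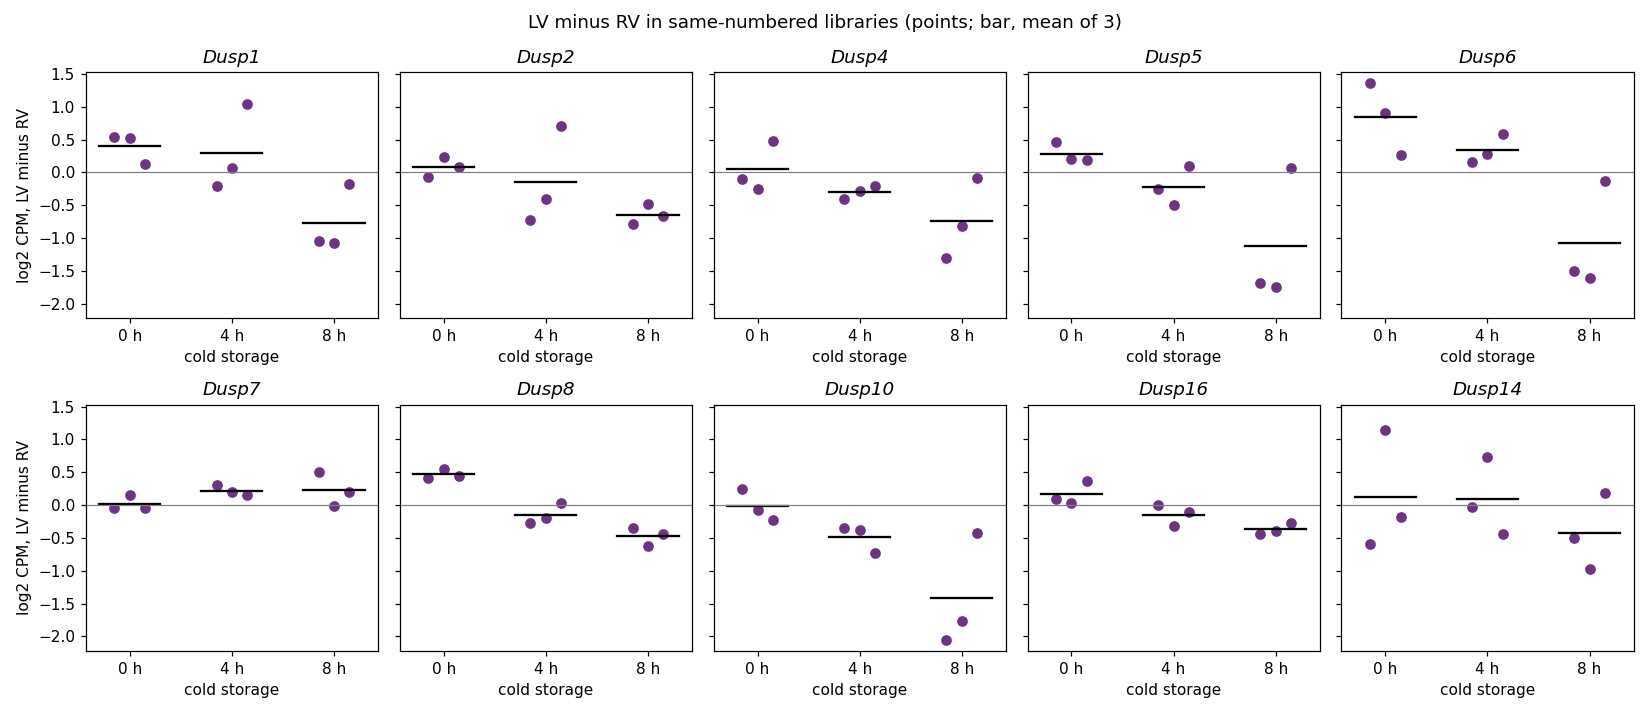
Log2 CPM of LV minus that of RV (y axis) in same-numbered libraries (points) at 0, 4 and 8 h of cold storage (x axis), with the mean of 3 pairs as a bar. At 8 h, 7 genes (Dusp1, Dusp2, Dusp4, Dusp6, Dusp8, Dusp10 and Dusp16) are below 0 in all 3 pairs. At 0 h, Dusp1, Dusp5, Dusp6, Dusp8 and Dusp16 are above 0 in all 3 pairs. The share of all genes with 3 pairs on the same side was not counted, so these numbers do not set the family apart. The unadjusted p of edgeR with the replicate block was under 0.05, in either direction, for 5551 of 15093 genes at 8 h. At 0 h it was so for 2161 genes.

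The change from 0 h was tested between ventricles as an interaction term. Without the block, edgeR called no member at 4 h or 8 h, as it called 0% of all genes at 4 h and 0% at 8 h. At an unadjusted p under 0.05 there were 0 and 4 members, beside 158 and 628 of the 15093 genes. DESeq2 called 0 and 0 members, beside 0 and 2 of 24072 genes. With the block, 1 member changed less in LV than in RV at 4 h (0.265% of all genes) and 5 did at 8 h (4.72%). The member at 4 h was Dusp8, with a difference of -0.60 on the log2 scale (SE 0.11, adjusted p = 0.0801). At 8 h the differences were -1.93 for Dusp6 (SE 0.37, adjusted p = 0.0104), -1.40 for Dusp5 (SE 0.39, adjusted p = 0.0566) and -1.40 for Dusp10 (SE 0.34, adjusted p = 0.0306). They were -1.18 for Dusp1 (SE 0.31, adjusted p = 0.0457) and -0.94 for Dusp8 (SE 0.11, adjusted p = 0.00131). In 4 of these 5 genes, Dusp1, Dusp5, Dusp6 and Dusp8, LV was above RV in all 3 pairs at 0 h, and the term takes in that difference as well as the one at 8 h. The number of members called at 8 h was 2 without heart 1 of 0 h, beside 497 of 15341 genes changing less in LV. It was 2 without heart 1 of 8 h (513 of 15301) and 3 without heart 2 of 8 h (782 of 15361). Without any other heart it was from 4 to 6 (515 of 15332 to 846 of 15192).

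The kinases that these phosphatases act on, and the kinases above them, were described from fixed lists. Their counts stand beside the shares of all genes called higher, 2.4% and 5.46% in LV at 4 h and 8 h and 6.17% and 13% in RV, and a share of a list near these is not a result about the list. An unadjusted p under 0.05, in either direction, was reached by 2271 and 3396 of the 14564 genes in LV and by 3142 and 4500 of the 14622 in RV. Of the 10 MAP kinase genes 9 were tested, and edgeR called none higher at either time in either ventricle, nor did DESeq2. Without adjustment, 1 was higher at each time in RV and 0 in LV at p under 0.05. Mapk3, which encodes ERK1, was lower in RV by 0.83 on the log2 scale at 4 h and by 0.68 at 8 h (adjusted p = 0.0634 and 0.0763). The p38 kinase gene Mapk12 was lower in RV at 4 h by 0.65. The median of the MAP kinases in RV at 8 h was -0.40, beside -0.07 over all genes. Of 7 MAP2 kinases, Map2k3, an activator of p38, rose at 4 h in LV by 0.80 (adjusted p = 0.0775) and in RV by 1.20 at 4 h and 1.03 at 8 h. Map2k7, an activator of JNK, was lower at 8 h in both ventricles, with log2 fold changes of -0.63 and -0.80. Of 16 MAP3 kinases, 1 and 2 were called higher in LV at 4 h and 8 h, and 3 and 3 in RV. They were Map3k6 (1.74 in LV and 2.06 in RV at 8 h), Map3k8, which activates ERK downstream of Toll-like and TNF receptors (1.56 and 2.37 at 8 h), and, in RV, Map3k14, the NF-kB-inducing kinase (1.79 at 8 h), while Map3k12 was lower in RV at 4 h by 0.91.

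Other phosphatases directed at MAP kinases and other atypical dual-specificity phosphatases, of which 15 of 21 genes were tested, were called by edgeR in 1 case. That was Ptpn7, a tyrosine phosphatase of blood cells, which rose by 1.43 in LV at 8 h (adjusted p = 0.049) from a low level, with means of 0.41 CPM at 0 h and 1.1 CPM at 8 h. In the other 3 comparisons edgeR called 0, with 2, 1 and 0 higher and 1, 2 and 1 lower at an unadjusted p under 0.05 (LV at 4 h, RV at 4 h and RV at 8 h) and 1, 0 and 0 called by DESeq2. Their median was -0.22 in RV at 8 h. By comparison, the non-phosphatase inhibitors of ERK signaling were called higher for 1 of 9 genes at each time in LV, and for 2 at 4 h and 5 at 8 h in RV, with a median of 1.23 in RV at 8 h. Spred1, which holds back Ras, rose in all 4 comparisons, by 0.90 and 1.20 in LV and by 1.08 and 1.75 in RV. Errfi1, an inhibitor of the EGF receptor, rose in RV by 1.66 and 2.47, and Spry2, Spry4 and Ier3 rose in RV at 8 h by 1.23, 1.54 and 1.40.

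Of the transcription factors and targets induced by ERK, 1 of 9 was called higher in LV at 4 h (Myc, 1.67) and 0 at 8 h by edgeR, with 1 at an unadjusted p under 0.05 and 1 called by DESeq2. In RV, 5 of 8 were called at 4 h and 6 of 8 at 8 h, among them Myc (2.61 and 2.87), Fos (1.79 and 2.37), Fosl1 (3.71 and 3.98) and Egr1 (1.77 at 8 h). Of 13 ligands that signal through ERK, 2 were called higher at each time in LV, and 3 at 4 h and 4 at 8 h in RV. Ereg (epiregulin) rose in all 4 comparisons, by 3.41 and 4.07 in LV and by 3.62 and 4.83 in RV, and Pdgfa rose in all 4 by 0.94 to 1.34. Hbegf rose in RV by 2.32 and 2.02, and Tgfa in RV at 8 h by 1.18. Among the regulators of p38 and JNK, the stress sensors Gadd45a, Gadd45b and Gadd45g were the 3 of 12 called in RV at each time (1.09, 2.62 and 3.19 at 8 h), and edgeR called 0 of the 12 in LV, where 4 and 2 were higher and 1 and 3 lower at an unadjusted p under 0.05 and DESeq2 called 1 and 1. Zfp36 and Zfp36l1, which bind AU-rich elements and speed the decay of short-lived mRNAs, were 2 of 6 such genes called higher in RV at 8 h (1.62 and 1.42). edgeR called 0 of the 6 elsewhere, with 1 in LV at 4 h, 0 in LV at 8 h and 2 in RV at 4 h higher at an unadjusted p under 0.05, the same numbers as DESeq2 called. Of 7 genes induced by glucocorticoids, a class to which Dusp1 also belongs, 1 was called higher at each time in LV, and 2 at 4 h and 3 at 8 h in RV. Fkbp5 rose in all 4 comparisons by 1.41 to 1.60, and Sgk1 by 1.39 and the EGF receptor inhibitor Errfi1 by 2.47 in RV at 8 h. With the replicate block, where 4.72% of all genes changed less in LV than in RV at 8 h, this was called for 6 of 9 ERK-induced genes, 4 of 9 ERK inhibitors, 3 of 12 p38 and JNK regulators, 3 of 13 ligands, 2 of 16 MAP3 kinases, 2 of 6 AU-rich binding proteins, 2 of 7 glucocorticoid-induced genes, and 0 of 9 MAP kinases and 0 of 7 MAP2 kinases. Of the other phosphatases 0 of 15 changed less, and Ptpn7 changed more in LV, by 1.21 (adjusted p = 0.0834). The mean of Ptpn7 at 0 h was 0.41 CPM in LV and 0.74 CPM in RV, a difference that this term takes in. In the ERK-induced genes Phlda1, Fos, Myc and Egr1, LV was already higher than RV at 0 h with the block, by 0.74 to 1.12, and the term takes in that difference. Without the block, edgeR and DESeq2 called 0 genes of the first 3 of these lists and of the MAP kinases, with 5, 4, 0 and 0 at an unadjusted p under 0.05 in edgeR. Over all genes, 628 of 15093 had such a p there, in either direction.

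**Figure D4:**
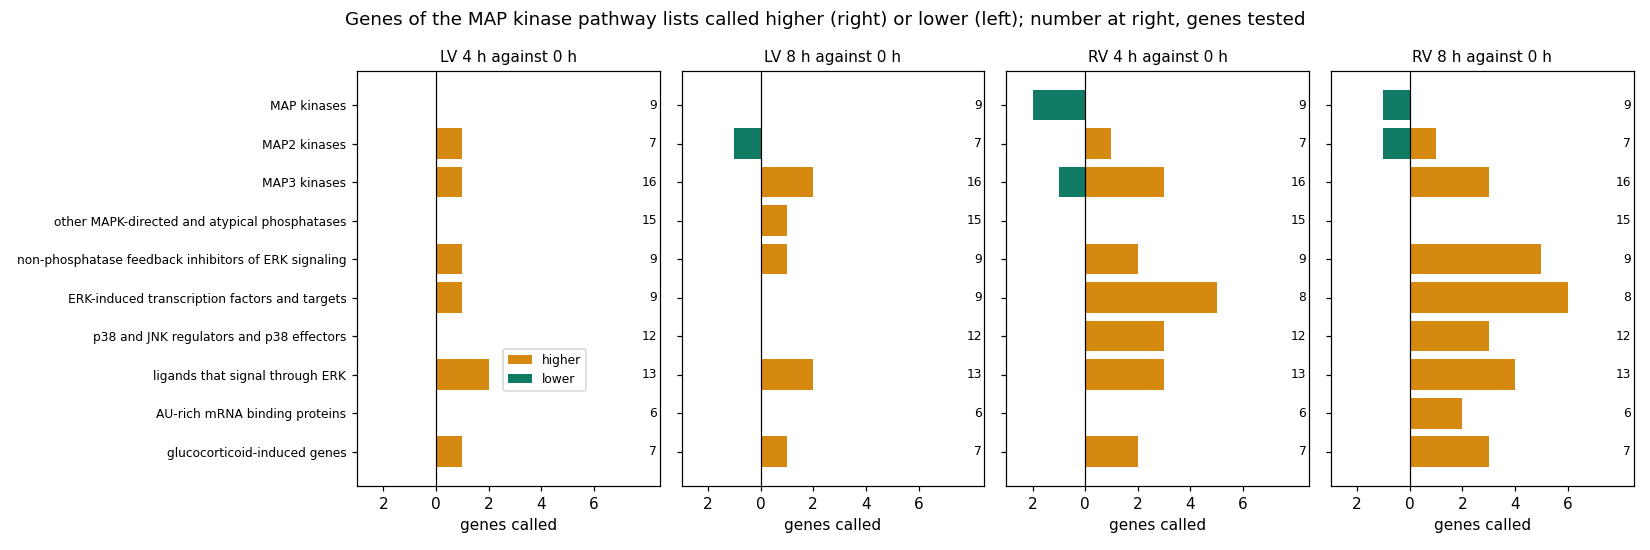
Number of genes called higher (right of 0) and lower (left of 0) in 10 lists of the MAP kinase pathway (rows) at 4 h and 8 h against 0 h in LV and RV (panels), with the number tested at the right edge. The ERK-induced genes reach 6 of 8 in RV at 8 h, and the MAP kinases themselves have 0 higher in every panel.

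Over the 18 libraries, each called member had its own closest genes among 9685 candidates, given as Pearson correlations of log2 CPM without a test, since libraries share storage times and hearts. Dusp1 was most like Egr2 (r = 0.922), Zfp36 (0.921) and Jun (0.92). Dusp2 was most like Rhbdf2 (r = 0.975), Ralb (0.974) and Rnd1 (0.973), and Dusp5 most like Stat3 (0.976), Pim1 (0.972) and Pnrc1 (0.965). Dusp6 had weaker neighbors, Rnd3 (r = 0.868), Fosb (0.863) and Nfil3 (0.862). Dusp8 was closest to Nt5dc3 (r = 0.929), Itga5 (0.918) and Arih1 (0.915), Dusp10 to Rfx2 (0.94) and Zfp335 (0.939), and Dusp16 to Ankrd33b (0.957), Naa15 (0.949) and Bach1 (0.947). Within the family the closest pairs were Dusp2 with Dusp16 (r = 0.872), Dusp5 with Dusp16 (0.869) and Dusp1 with Dusp6 (0.851).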

How the data were processed

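RNA from LV and RV of mouse hearts was sequenced in 18 libraries prepared with a directional kit. The deposited files hold, per transcript, the estimated counts and the TPM that the authors obtained with kallisto. Transcript values were summed per gene with the GENCODE annotation of GRCm38, with 110203 of the 111462 transcripts matched and the 1259 unmatched ones, at most 0.383% of a library, left out. Estimated counts were rounded to whole numbers. edgeR 4.0.16 (TMM, filterByExpr, quasi-likelihood test, Benjamini-Hochberg adjustment) in R 4.3.3 was fitted to the 9 libraries of a ventricle for storage, and to all 18 for LV against RV and the interaction. The standard error is the log2 fold change divided by the square root of F. A call required a fold change over 1.5 besides an adjusted p under 0.1. DESeq2 1.42.0 was an alternative, beside RLE scaling, transcript length offsets, no filter, mitochondrial genes left out, a term for Y-linked counts, all libraries in the fit, other thresholds, and each library left out. Protein-coding transcripts alone, DESeq2 with length offsets and each heart left out were added after seeing the data. The models were tested on simulated data.

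Groups and replicate numbers came from the labels, which do not say that replicates are separate cultures or animals, so that p-values measure the spread between these libraries. Whether equal numbers pair libraries was read from the data, by the correlation of deviations from the group means across genes. It was 0.325 to 0.697 in the 9 LV and RV pairs, over 0.1 in every pair of stored and 0 h libraries of RV (0.111 to 0.278), and over 0.1 in every pair of 4 h and 8 h libraries of both ventricles (0.327 to 0.568), which were taken as paired. Between stored and 0 h libraries of LV it was -0.0179 to 0.261, and these were not. Some differently numbered pairs were also over 0.1, up to 0.23 for LV replicate 1 of 8 h with LV replicate 2 of 4 h. A heart was stored for 1 duration, so the block across storage times stands for the replicate number and not for a heart. The members and lists were chosen with earlier results of these data known. Genes of the lists were named by the smallest adjusted p, at most 4 per list and comparison, and all 10 members were named. Levels are CPM with TMM factors over 18 libraries. Depth limits Dusp14 and Dusp4 most. A gene among those most like Dusp10 is not reported here.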

Additional observations from a re-analysis of the deposited data

Results flagged for a closer look

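The change with storage differed between the ventricles for 5 members in the test of the difference itself, edgeR's interaction term with the replicate block, and none of these differences passed without the block. At 8 h against 0 h the change in LV minus that in RV on the log2 scale was -1.926 for Dusp6, -1.405 for Dusp5, -1.398 for Dusp10, -1.177 for Dusp1 and -0.9393 for Dusp8. At 4 h it was -0.6015 for Dusp8. Each of the 9 hearts was left out in turn, with the block kept. The 8 h difference was then called in all 9 fits for Dusp6 and for Dusp8. It was called in 7 for Dusp10, in 5 for Dusp1 and in 4 for Dusp5. The 4 h difference of Dusp8 was called in 4. The sources used here do not state that equal numbers name the same heart, on which the block rests.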

How the results depend on the processing

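Of 1220 values under settings that kept all libraries, 1155 kept their direction and side of the threshold, 9 lost and 41 gained a call, and 15 changed sign. Of 1440 values with a library left out, 1346 kept both, 25 lost and 13 gained a call, and 56 changed sign. The 450 values with a heart left out and the replicate block were set against the fit of all libraries without the block. Of these, 338 kept both, 91 gained a call and 21 changed sign. Without the block no member was called between the ventricles, so there was no call to lose, and a gain takes in the block itself. These 450 values therefore do not show whether calls made with the block held without a heart. No value that changed sign was called in either fit. The causes were not tested. With 3 libraries a group, calls near the threshold rest on single libraries.

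The number of members called higher in LV was 1 at 4 h and 0 at 8 h with an adjusted p under 0.05, and 0 at 8 h with all 18 libraries in the fit. In RV at 4 h it was 7 with the replicate block, with DESeq2 and with all 18 libraries. These fits called 1236 of 14622, 1205 of 22800 and 1072 of 15093 genes higher. From 4 h to 8 h in LV, DESeq2 called 1 member lower (63 of 22769 genes), and 2 with transcript length offsets (79 of 22779). At 8 h, 6 members were lower in LV than in RV with the replicate block (986 of 15093 genes), 2 with DESeq2 (140 of 24072) and 1 with DESeq2 and length offsets (114 of 24078). With the block, 1 member at 4 h and 5 at 8 h changed less in LV than in RV. The block changed no call of a member in LV against 0 h, where the numbers were not taken as paired, nor between 4 h and 8 h in either ventricle, where they were.

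With a library left out, members called higher numbered 0 to 4 in LV at 4 h, 0 to 1 in LV at 8 h and 2 to 7 in RV at 4 h. In these fits, from 14 of 14813 to 669 of 14758 genes were called higher in LV at 4 h. The range was 130 of 14813 to 1422 of 14828 in LV at 8 h and 235 of 14950 to 1219 of 14828 in RV at 4 h. Members lower at 8 h than at 4 h in LV numbered 0 to 1, those with LV above RV at 0 h 0 to 1, those with LV below RV at 8 h 0 to 6, and those with a smaller change in LV 0 to 1 at 4 h and 0 to 6 at 8 h.

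Sign changes under other settings concerned log2 fold changes near 0. Dusp7 in LV at 8 h was 0.16 with length offsets and 0.15 with DESeq2 and length offsets. Dusp16 in LV from 4 h to 8 h was 0.012 with RLE, 0.098 with length offsets, 0.0025 without mitochondrial genes, 0.00024 with the block, 0.0049 with protein-coding transcripts alone, 0.0044 with DESeq2 and 0.087 with DESeq2 and length offsets. For LV against RV at 0 h, Dusp2 was -0.027 with length offsets and -0.028 with DESeq2 and length offsets, Dusp7 was -0.14 with length offsets, -0.00051 with the block and -0.13 with DESeq2 and length offsets, and Dusp14 was -0.0085 with DESeq2.

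Log2 fold changes whose sign turned when a library or heart was left out had these ranges. For LV 4 h against 0 h, the range was -0.17 to 0.0023 for Dusp7. For LV 8 h against 0 h, the range was -0.14 to 0.49 for Dusp1, -0.72 to 0.17 for Dusp4, -0.11 to 0.056 for Dusp7, -0.38 to 0.14 for Dusp8 and -0.61 to 0.073 for Dusp10. For LV 8 h against 4 h, the range was -0.063 to 0.083 for Dusp16 and -0.45 to 0.015 for Dusp14. For RV 8 h against 0 h, the range was -0.15 to 1.04 for Dusp4. For RV 8 h against 4 h, the range was -0.82 to 0.10 for Dusp4, -0.29 to 0.068 for Dusp5, -0.041 to 0.17 for Dusp7 and -0.26 to 0.14 for Dusp8. For LV against RV at 0 h, the range was -0.70 to 0.88 for Dusp2, -0.62 to 0.66 for Dusp4, -0.10 to 0.62 for Dusp5, -0.0698 to 0.094 for Dusp7, -0.16 to 0.091 for Dusp10, -0.059 to 0.30 for Dusp16 and -0.41 to 0.38 for Dusp14. For LV against RV at 4 h, the range was -0.069 to 0.55 for Dusp1, -0.57 to 0.12 for Dusp2, -0.67 to 0.072 for Dusp4, -0.52 to 0.12 for Dusp5, -0.34 to 0.052 for Dusp8 and -0.22 to 0.33 for Dusp14. For the change at 4 h in LV minus that in RV, the range was -0.46 to 0.16 for Dusp1, -1.13 to 0.46 for Dusp2, -0.999 to 0.28 for Dusp4 and -0.29 to 0.51 for Dusp14. For the change at 8 h in LV minus that in RV, the range was -1.55 to 0.032 for Dusp2.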
